A study of Mus musculus with 743 samples.

Results

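The transcripts described here are those of 6 genes of myelin structural proteins, Mbp, Mag, Pmp2, Mal, Pllp and Cnp. They were listed by name and not by a cut on their levels, but earlier results of these data were known when they were chosen. They are 6 of the 25700 genes in the table of counts. Single Schwann cells (SCs), the glia of peripheral axons, had been taken from sciatic nerves of pups at postnatal day 1 (P1) and sorted 1 per well onto 2 plates for Smart-seq2, a full-length method without molecular identifiers. The mice carried P0Cre, a Cre transgene driven by the promoter of a myelin gene, together with ReYFP, a reporter that yields eYFP after recombination, and βAct-DsRed, which marks cells in general, on a C57bl/6J background, with no treatment. All cells belong to this 1 group, and each plate received the pooled cells of its own 1 male and 1 female pup, so that the plate is the replicate (n = 2) and animals within a plate cannot be told apart. Cells were selected by P0Cre-dependent eYFP, so SCs without recombination were not collected.

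Myelin is the stack of glial membrane that a promyelinating SC (pmSC) winds around a large axon. Its compact part is held together by adhesive and membrane-flattening proteins, whereas channels of cytoplasm and the membrane next to the axon stay noncompact and hold other proteins. Mbp, myelin basic protein, brings the cytoplasmic membrane faces together, Pmp2 is a fatty acid binding protein of peripheral compact myelin, and Mal and Pllp (plasmolipin) are small proteins of the MARVEL type that cross the membrane several times and sit in lipid-rich domains. Mag, a sialic acid binding adhesion protein, is known from the membrane facing the axon, and Cnp, a phosphodiesterase attached to membrane and cytoskeleton, from noncompact cytoplasm. The name compact myelin thus fits only some of the 6, and they are called myelin structural protein genes below.

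The upstream sequences of 4 of the 6 genes were at hand, from RefSeq on the build GRCm38.p6, and are shown because these genes shared a tissue and cell type but differed in the cells that held their transcripts. Each stretch holds 200 bases, from base -250 to base -51 before the most upstream annotated start, written in the direction of transcription. Mag lies at chr7:30914973-30915172 on the minus strand, Mal at chr2:127656746-127656945 on the minus strand, Pllp at chr8:94696293-94696492 on the minus strand and Cnp at chr11:100574689-100574888 on the plus strand. Capitals mark matches, on either strand, to ACAANG, a core read by SOX factors, or to CCAAT. No match overlapped another.
Mag: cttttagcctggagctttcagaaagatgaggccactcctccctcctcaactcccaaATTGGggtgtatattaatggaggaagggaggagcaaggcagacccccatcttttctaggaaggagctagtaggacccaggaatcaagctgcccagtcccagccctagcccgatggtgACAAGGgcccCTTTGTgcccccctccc
Mal: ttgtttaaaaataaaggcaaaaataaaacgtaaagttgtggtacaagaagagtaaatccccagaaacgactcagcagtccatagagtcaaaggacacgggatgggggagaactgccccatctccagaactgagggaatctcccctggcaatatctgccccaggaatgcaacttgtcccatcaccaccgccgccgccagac
Pllp: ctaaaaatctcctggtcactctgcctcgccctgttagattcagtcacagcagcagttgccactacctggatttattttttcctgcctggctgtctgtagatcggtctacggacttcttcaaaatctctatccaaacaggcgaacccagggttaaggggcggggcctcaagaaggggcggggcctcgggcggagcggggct
Cnp: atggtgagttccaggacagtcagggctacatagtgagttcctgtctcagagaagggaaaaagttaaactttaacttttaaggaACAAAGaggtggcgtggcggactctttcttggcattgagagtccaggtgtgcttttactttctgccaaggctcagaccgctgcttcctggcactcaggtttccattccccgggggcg
Mag held 2 SOX matches and 1 CCAAT match, Cnp held 1 SOX match, and Mal and Pllp held none of either. Among 27025 promoter stretches of the same length, 31.2% held a SOX match and 28.9% a CCAAT match. None of the 4 held GTGGGNG, a core read by EGR factors and present in 21.9% of stretches, or TATAAA, present in 9.49%. The stretches of Mag, Cnp, Mal and Pllp held 1, 5, 6 and 9 CpG dinucleotides, against a median of 4. These matches describe letters and not sites in use.

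Of 743 wells, 621 had at least 1500 detected genes and were used, 287 on plate 1 and 334 on plate 2, with medians of 928401 and 791056 reads per cell. Cells with Mki67 and Top2a, both needed in dividing cells, at a sum of 50 CPM (reads of a gene scaled to a cell or sum total of 1000000) or more were called cycling (53 and 57 cells on plates 1 and 2). Of the rest, cells with Ncmap, a membrane protein of peripheral myelin, at 50 CPM or more were called Ncmap-positive (59 and 60 cells), and 175 and 217 were other cells. Only 4 noncycling cells had 25 to under 50 CPM of Ncmap and 5 had 50 to under 100, and 379 of the 392 other cells had no Ncmap read. Ncmap-positive cells had 14315 and 14574 CPM of a list of 7 promyelinating marker genes, against 2664 and 3372 CPM in other cells. Most of this was 1 gene, Pmp22, with 11463 and 11856 CPM in Ncmap-positive cells and 2052 and 2639 in other cells. By the test given below 5 of the 7 were called higher, where 0.497% of all genes were called higher. The SC markers Sox10, S100b and Erbb3 summed to between 443 and 757 CPM in every class and plate. Of these, S100b took 251 and 288 CPM in Ncmap-positive cells against 84.9 and 94 in other cells (log2 fold change 1.67, edgeR adjusted p 0.0446). In cycling cells S100b took 34.2 and 58.8 CPM. Sox10 and Erbb3 were not called between Ncmap-positive and other cells. Summed lists of endothelial, fibroblast-like, immune and mural markers stayed between 0 and 56.8 CPM. Of these 16 genes, 7 (Cdh5, Kdr, Acta2, Rgs5, Ptprc, Tyrobp and Pdgfra) had no read in any class. Others reached 50 CPM in some cells, among them Pdgfrb in 14.3% and Dcn in 10.1% of Ncmap-positive cells and Cspg4 in 12.7% of cycling cells. Pdgfrb had no read in cycling cells and was lower there than in other cells (edgeR adjusted p 0.00976), where 0.113% of all genes were called lower. 8 genes of the dissociation response summed to 2205 and 2418 CPM in Ncmap-positive cells, against 5842 and 6379.9 in other cells and 4726 and 7160.5 in cycling cells. Their part in the differences below was not tested.

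Together the 6 genes took 1.64% and 1.56% of the reads of Ncmap-positive cells on plates 1 and 2, 0.528% and 0.597% in other cells, and 0.415% and 0.497% in cycling cells. The genes fell into those with abundant transcripts in every class (Mal, Cnp and Mbp) and those with low sums outside Ncmap-positive cells (Pmp2, Mag and Pllp). To order the genes against each other, CPM were divided by the length of the annotated exons in kb, which counts exons that SCs may not use. In other cells the order of levels was Mal (679 ± 15.7 CPM per kb, SD, n = 2), Cnp (375 ± 1.52), Mbp (255 ± 43.2), Pllp (48.8 ± 20.1), Pmp2 (45.8 ± 7.33) and Mag (13.1 ± 7.8). Pllp and Pmp2 did not differ beyond their spread. In Ncmap-positive cells the order of levels was Pmp2 (1577 ± 45.4 CPM per kb), Mbp (949 ± 19.3), Mal (895 ± 63.5), Cnp (627 ± 41), Pllp (233 ± 14.6) and Mag (112 ± 5.9), so Pmp2 stood first where it had been second from last, and Mbp and Mal did not differ beyond their spread. Cycling cells had Mal (644 ± 23.8 CPM per kb), Cnp (252 ± 47.5), Mbp (207 ± 53.8), Pllp (23.1 ± 6.33), Pmp2 (15.2 ± 7.95) and Mag (7.23 ± 3.94), where the plate values of Cnp and Mbp, of Pllp and Pmp2, and of Pmp2 and Mag overlapped.

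**Figure D1:**
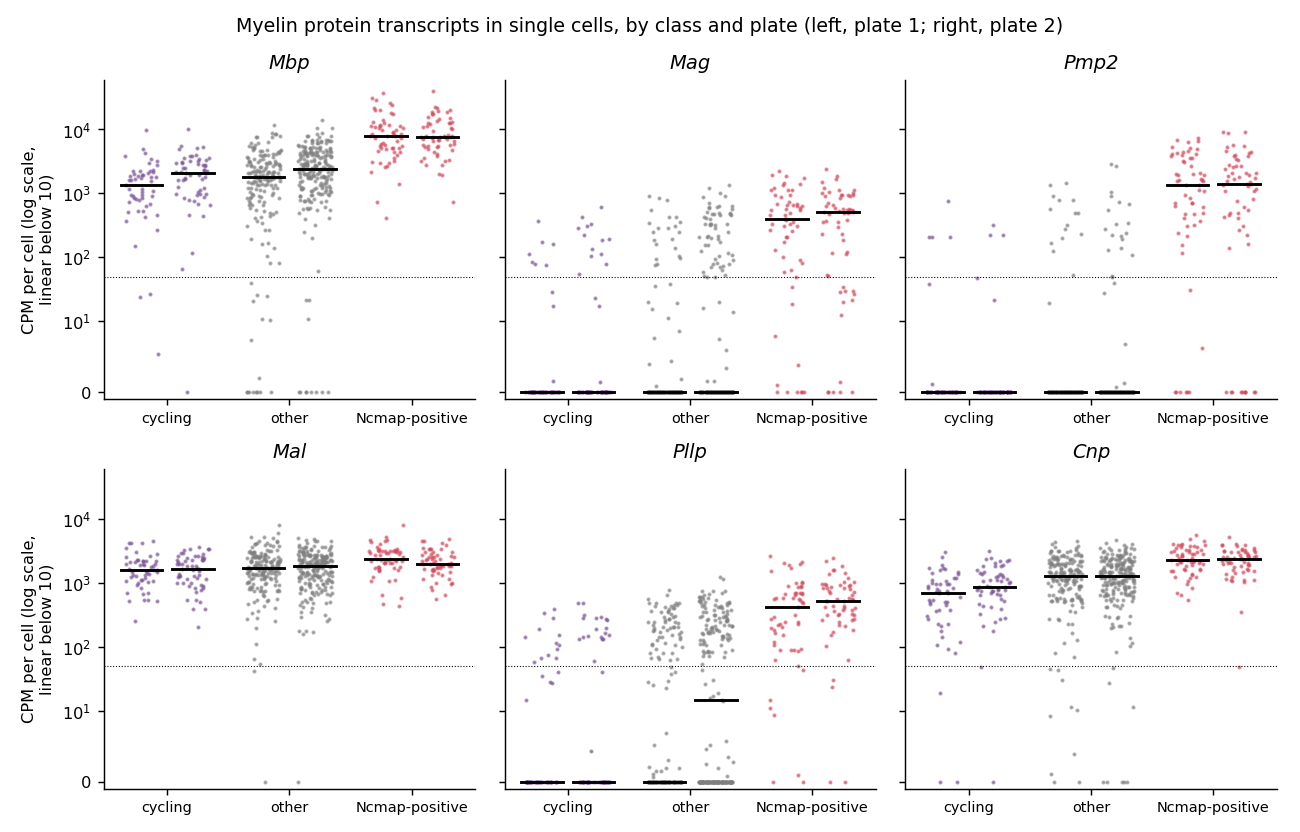
CPM of the 6 genes in each of 621 cells (points), on a log axis that is linear below 10, for cycling, other and Ncmap-positive cells, with plate 1 to the left of plate 2 in each class. Black bars are medians and the dotted line is 50 CPM. The medians of Mal lie between 1570.2 and 2392 CPM in all classes, while most other and cycling cells lie at 0 for Mag and Pmp2.

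The main comparison asked which of the 6 genes differed between Ncmap-positive and other cells. The reads of each class on each plate were added up, and the 6 sums were compared in edgeR by the quasi-likelihood method, with p-values adjusted after Benjamini and Hochberg over 13292 genes. Pmp2, Mag, Pllp and Mbp were higher in Ncmap-positive cells, 4 of the 6 genes, where 0.497% of all genes tested were called higher. The median log2 fold change was 2.16 over the 6 genes and -0.07 over all genes. All 6 had an unadjusted p under 0.05 in edgeR, as did 1485 of all 13292 genes. DESeq2 called all 6 higher, and 334 of all genes. With limma on mean CPM 4 were called higher, and 120 of all genes. More genes were detected per Ncmap-positive cell, with medians of 3690 and 3550 on plates 1 and 2 against 2775 and 2819 per other cell, and the part of this in the result was not tested.

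Pmp2 (ENSMUSG00000052468, chromosome 3, 10179851 to 10183929, minus strand) had the largest difference among the 6. It took 2265 and 2175 CPM of the Ncmap-positive sums on plates 1 and 2, against 57.2 and 71.8 CPM in other cells and 29.3 and 13.4 CPM in cycling cells. Both Ncmap-positive sums were far above the 4 others, and the difference from other cells was 36.4-fold (5.19 on the log2 scale, SE 0.399, edgeR adjusted p 6.73e-04). Positions here and below are from GENCODE M21 on GRCm38. The gene overlaps Gm37389 in exons of the same strand, and Gm37389 held 93.5% as many reads as Pmp2 in Ncmap-positive cells and 93.8% in other cells. Reads in the shared exons thus appear to have been counted for both genes, and reads from Gm37389 cannot be told apart from those of Pmp2.

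Mag (ENSMUSG00000036634, chromosome 7, 30899176 to 30914873, minus strand), which overlaps no annotated gene, took 473 and 439 CPM in Ncmap-positive cells. In other cells it took 30.8 CPM on plate 1 and 75.8 on plate 2, and in cycling cells 18.1 and 40.8 CPM, so that its low level differed more than 2-fold between plates. The Ncmap-positive sums lay above all others, with a 9.1-fold difference from other cells (3.19 on the log2 scale, SE 0.503, adjusted p 0.0172 in edgeR). The ratio was 16-fold on plate 1 and 6.17-fold on plate 2.

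Pllp (ENSMUSG00000031775, chromosome 8, 94674894 to 94696278, minus strand) took 463 and 506 CPM in Ncmap-positive cells. Other cells had 72 and 131 CPM and cycling cells 38.8 and 57.4 CPM, with plate 2 the higher in each class. The Ncmap-positive sums were 5.06-fold above those of other cells (2.34 on the log2 scale, SE 0.334, adjusted p 0.011 in edgeR). Pllp shares exon sequence with Gm45767 of the opposite strand, which was not analysed here.

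Mbp (ENSMUSG00000041607, chromosome 18, 82475146 to 82585637, plus strand) was abundant in every class. It took 8156 and 7925 CPM in Ncmap-positive cells, against 1904 and 2421 in other cells and 1433 and 2077 in cycling cells. In CPM it differed from other cells by more than any of the other 5 genes, and the difference was 3.93-fold (1.98 on the log2 scale, SE 0.191, adjusted p 0.00165 in edgeR). Rpl21-ps8, within the gene on the opposite strand, overlaps none of its exons.

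Cnp and Mal, both already abundant in other cells, were not called. Cnp (ENSMUSG00000006782, chromosome 11, 100574904 to 100591729, plus strand) took 2387 and 2176 CPM in Ncmap-positive cells, against 1367 and 1359 in other cells and 795 and 1040.0 in cycling cells. Its Ncmap-positive sums lay above those of other cells on both plates, a difference of 0.82 on the log2 scale (SE 0.169, adjusted p 0.0556 in edgeR). In edgeR with a block for the plate the adjusted p was 0.0252, and over the 11 fits tried it ranged from 4.87e-05 to 0.0667, with 7 of them under 0.05. Exons of Cnp overlap those of Dnajc7 of the opposite strand, and no source says if strand was used in counting. Reads in the shared exons may thus come from either gene. Dnajc7 held 11.6% as many reads as Cnp in Ncmap-positive cells, 13.9% in other cells and 23.3% in cycling cells.

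Mal (ENSMUSG00000027375, chromosome 2, 127633226 to 127656695, minus strand), which overlaps no annotated gene, took 2610.3 and 2361 CPM in Ncmap-positive cells. Other cells had 1854 and 1916 CPM and cycling cells 1836 and 1743 CPM. The log2 fold change between Ncmap-positive and other cells was 0.48, with a 95% interval of 0.14 to 0.81 and an edgeR adjusted p of 0.218, which does not show that the classes had like levels. DESeq2 called it (log2 fold change 0.53, adjusted p 0.0139), the 1 fit of 11 that did, and over these fits the adjusted p ranged from 0.0139 to 0.34.

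**Figure D2:**
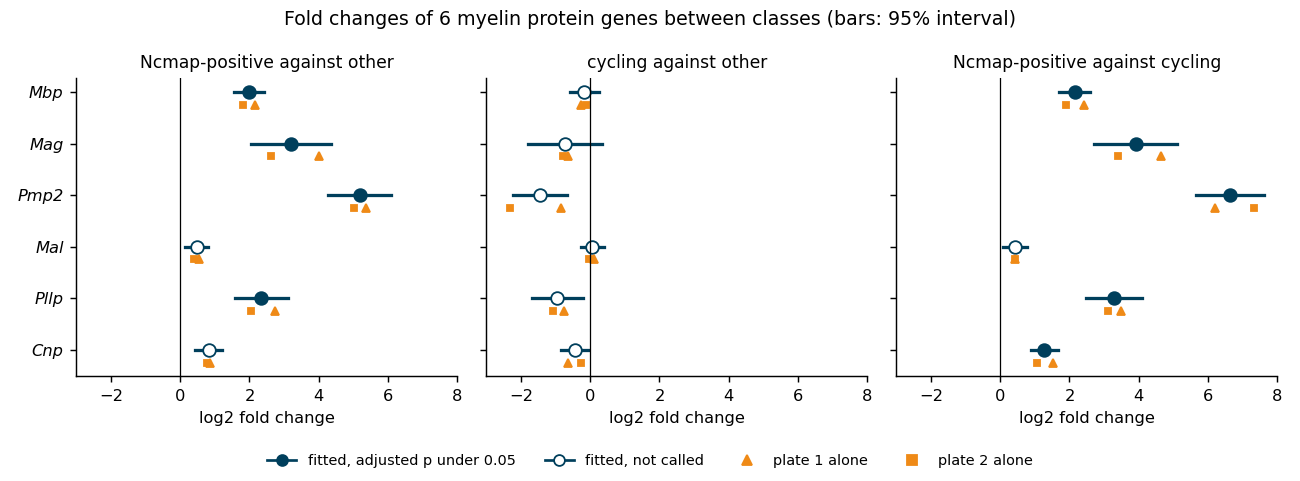
Log2 fold changes of the 6 genes in 3 comparisons of classes. Circles are edgeR estimates with 95% intervals, filled where the adjusted p was under 0.05, and orange triangles and squares are the ratios on plates 1 and 2 alone. Pmp2 stands farthest to the right against both other and cycling cells, and no circle is filled between cycling and other cells.

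Between cycling and other cells, edgeR called 0 of the 6 genes. At an unadjusted p under 0.05 stood 3 of the 6, and 1339 of all 13292 genes. Of all genes, 0.895% were called higher and 0.113% lower in cycling cells. Higher calls made up 88.8% of all calls in edgeR, 55% in DESeq2 and 71.6% in edgeR with no filter on low counts. The median log2 fold change of the 6 genes was -0.59, against -0.07 over all genes. The estimates were negative for Pmp2 (-1.45, 95% interval -2.23 to -0.66), Pllp (-0.95, -1.68 to -0.21), Mag (-0.73, -1.80 to 0.34), Cnp (-0.44, -0.83 to -0.06) and Mbp (-0.17, -0.59 to 0.25). That of Mal was 0.06 (-0.28 to 0.39). The estimate for Pmp2 was -0.83 on plate 1 alone, -2.31 on plate 2 alone and -0.87 (edgeR adjusted p 0.439) without the 13 cells with traces of Ncmap under 50 CPM. DESeq2 called Pmp2 lower (log2 fold change -1.40, adjusted p 0.00189), as did edgeR without the low-count filter (adjusted p 0.0392) and after thinning to 50000 reads per cell (adjusted p 0.0175), and over 11 fits its adjusted p ranged from 0.00189 to 0.439. Its reads came from few cells in both classes. In cycling cells, as in other cells, the 10% of cells with the highest levels held 100% of the Pmp2 reads.

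Against cycling cells, 5 of the 6 genes were higher in Ncmap-positive cells, where 2.12% of all genes tested were called higher. This comparison shares the Ncmap-positive sums with the one above. The fold differences were 99.3 for Pmp2 (6.63 on the log2 scale, SE 0.428, adjusted p 1.05e-04), 15.1 for Mag (adjusted p 0.00356), 9.75 for Pllp (adjusted p 0.00116), 4.44 for Mbp (adjusted p 4.79e-04) and 2.41 for Cnp (adjusted p 0.00375), all from edgeR. On plates 1 and 2 alone the ratio was 73.2-fold and 159.6-fold for Pmp2 and 24.8-fold and 10.6-fold for Mag. Mal differed 1.34-fold (edgeR adjusted p 0.158, and 0.0495 with the plate as a block). Over its 11 fits the adjusted p of Mal ranged from 0.0426 to 0.161.

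A sum does not show whether more cells held a transcript or each cell held more of it. A gene was therefore called on in a cell at 50 CPM or more. In other cells, Mal was on in 98.9% and 99.5% of cells on plates 1 and 2, Cnp in 94.3% and 96.3% and Mbp in 90.9% and 94.9%. Their higher sums in Ncmap-positive cells thus came with little room for a higher share of cells, and the median of Mbp per cell was 7885 and 7557 CPM there against 1808 and 2427 in other cells. Cnp had medians of 2276 and 2388 CPM per Ncmap-positive cell against 1281 and 1274 per other cell, and Mal 2392 and 1999 against 1685 and 1822.

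For the remaining genes the share of cells differed as well. Pmp2 was on in 8.57% (exact 95% binomial interval 4.88 to 13.7%) and 8.29% (4.99 to 12.8%) of other cells and in 86.4% (75 to 94%) and 83.3% (71.5 to 91.7%) of Ncmap-positive cells. Mag was on in 12.6% (8.05 to 18.4%) and 25.8% (20.1 to 32.2%) of other cells and in 81.4% and 76.7% of Ncmap-positive cells. The plates' intervals for Mag in other cells did not overlap. The intervals cover the error of counting cells only, and not differences between the pools of mice. Reads without molecular identifiers are also not independent molecules. Pllp was on in 36.6% and 47% of other cells and in 86.4% and 93.3% of Ncmap-positive cells. In cycling cells Pllp was on in 24.5% and 33.3%, Mag in 13.2% and 22.8% and Pmp2 in 7.55% and 5.26% of cells. After each cell was thinned to 50000 reads, the mean shares in other cells were 41.5% ± 6.73 (SD, n = 2) for Pllp, 18.1% ± 7.76 for Mag and 8.19% ± 0.203 for Pmp2, against 41.8% ± 7.38, 19.2% ± 9.36 and 8.43% ± 0.196 with all reads. Of the 6 genes, 5.53 ± 0.0182 were on per Ncmap-positive cell, 3.57 ± 0.213 per other cell and 3.45 ± 0.157 per cycling cell.

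**Figure D3:**
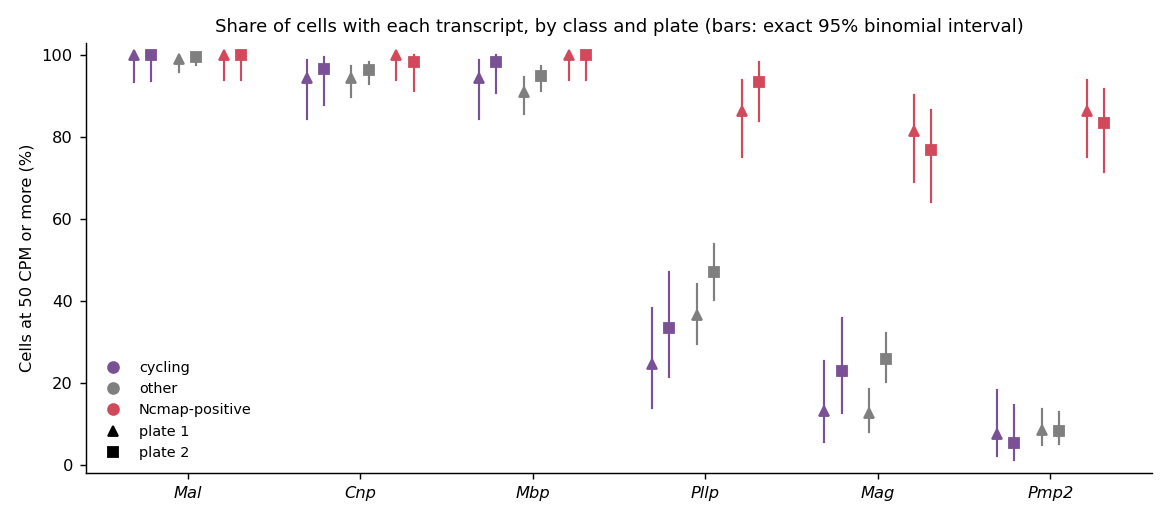
Share of cells at 50 CPM or more for each gene, by class (colour) and plate (triangle, plate 1; square, plate 2), with exact 95% binomial intervals. Mal, Cnp and Mbp lie at 90.9% or more in every class, whereas Pllp, Mag and Pmp2 lie at 76.7% or more in Ncmap-positive cells and at 47% or less elsewhere.

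Which genes were on together was then counted in the 511 noncycling cells, where Mal was on in 508, Cnp in 492, Mbp in 484, Pllp in 273, Mag in 172 and Pmp2 in 134. States are seen side by side at P1 and no cell is followed over time, so the order in which transcripts appear was not tested. Where 1 gene of a pair is on in more cells than the other, the cells with only the commoner gene must outnumber those with only the rarer one, so the counts below restate these numbers and describe the overlap. Of the cells with Mag on, 172 had Mbp on and 0 had it off, in a population where nearly all cells had Mbp on.

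Pllp, Mag and Pmp2 were off in many cells. With exactly 1 of Pllp and Pmp2 on, Pllp was the one in 65 of 81 cells on plate 1 and 101 of 112 on plate 2, or 85.2% ± 7.02 (SD, n = 2). With exactly 1 of Pllp and Mag on, it was Pllp in 57 of 69 and 79 of 102 cells, or 80% ± 3.65. With exactly 1 of Mag and Pmp2 on, Mag was the one in 22 of 40 cells on plate 1 and 54 of 74 on plate 2, or 64% ± 12.7. On plate 1 this was 22 cells with Mag against 18 with Pmp2. Most of these cells were other cells, where 58 and 91 had Pllp without Pmp2 and 9 and 7 the reverse. Among Ncmap-positive cells the same counts were 7 and 10 against 7 and 4. Mag without Pmp2 was found in 18 and 48 other cells and the reverse in 11 and 10, whereas in Ncmap-positive cells Mag without Pmp2 was found in 4 and 6 and the reverse in 7 and 10, the opposite direction on both plates.

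The combined states were as follows. Of the 392 other cells, 183 had none of the 3 genes on, 110 had Pllp alone, 27 Mag alone and 12 Pmp2 alone. Pllp with Mag was found in 39 other cells, Pllp with Pmp2 in 9, Mag with Pmp2 in 4 and all 3 in 8. Of the 119 Ncmap-positive cells, 80 had all 3 on, 40 on each plate, and 1 had none. Cycling cells held all 3 in 0 of 110 cells, with Pllp on in 32, Mag in 20 and Pmp2 in 7.

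Within other cells, which lacked all but traces of Ncmap, the level of Mbp went with the number of these genes on. Its median was 1352 and 1952 CPM on plates 1 and 2 with none on, 2133 and 2549.9 with 1 on, 3652 and 3615 with 2 on, and 5718 and 5272 with 3 on, the last from only 2 and 6 cells. Cnp had medians of 1125 and 1119 CPM with none on and 1849 and 1491 with 2 on. Mal showed no such order, with 1753 and 1979 CPM with none on and 1895 and 1455 with 2 on. Cells with none on had more reads, with medians of 1019932 and 946157 against 837754 and 487016 with 2 on, and fewer detected genes (2431 and 2515 against 3096 and 3098). The part of depth in these medians was not tested.

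**Figure D4:**
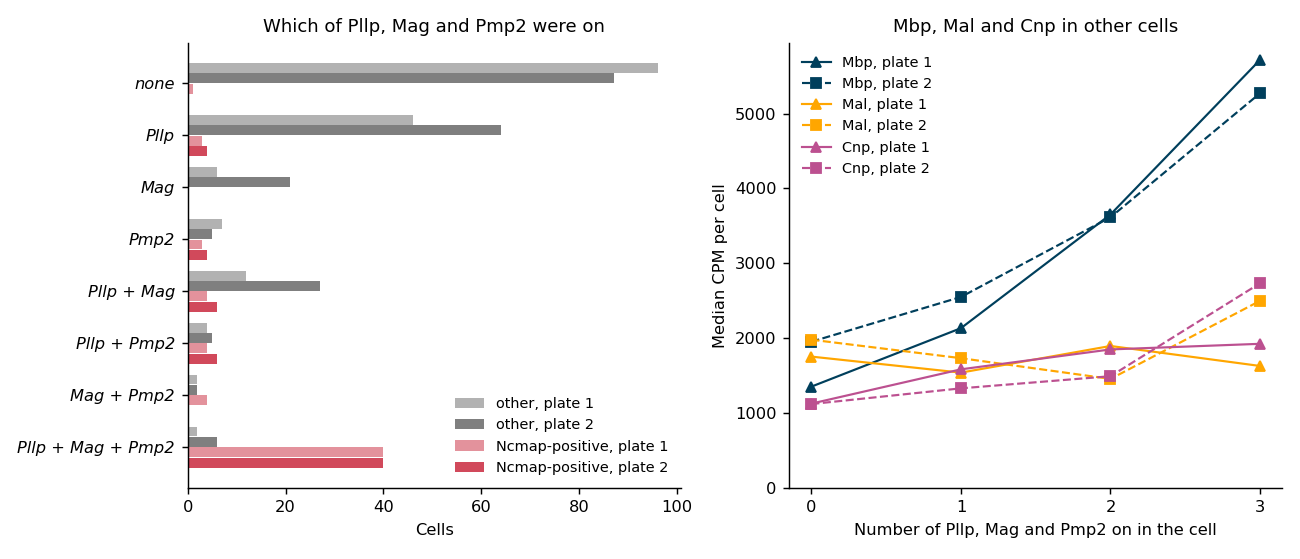
Left, number of cells on each plate for each combination of Pllp, Mag and Pmp2 at 50 CPM or more, in other and Ncmap-positive cells. Right, median CPM of Mbp, Mal and Cnp in other cells by how many of Pllp, Mag and Pmp2 were on, where the points at 3 rest on 2 and 6 cells. Pllp alone is the commonest combination after none in other cells, and Mbp reaches 5718 and 5272 CPM with 3 on.

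The level of Ncmap gave another ordering of noncycling cells. In cells with 50 to under 500 CPM of Ncmap (9 and 19 cells on plates 1 and 2), Mag had medians of 271 and 390.4 CPM, and these were 534 and 589 CPM in cells with 2000 CPM of Ncmap and more (14 and 15 cells). Between these ranges, at 500 to under 2000 CPM of Ncmap (36 and 26 cells), Mag had 454 and 444 CPM. Mbp had medians of 5069 and 5738 CPM in the lower range, 7931 and 8761 in the middle one and 10177 and 7957 in the upper one, and Pllp had 422 and 416, 282 and 547, and 547 and 685 CPM. Neither went up at every step on both plates. Pmp2 was the gene with the widest span here, with medians of 245 and 605 CPM at 50 to under 500 CPM of Ncmap, 1237 and 1293 at 500 to under 2000, and 3586 and 2625 at 2000 and more. It was on in 66.7% and 63.2% of cells in the lowest of these ranges and in 100% on both plates in the highest. Mal had medians of 2682 and 1841 CPM in the lowest range and 2399.7 and 2687 in the highest, with the plates in opposite order. In the 7 and 6 cells with traces of Ncmap under 50 CPM, Pmp2 had medians of 0 CPM on both plates but means of 322 and 484 CPM, against means of 35.8 and 42.8 CPM in the 168 and 211 cells with no Ncmap read. On each plate 2 of these cells had Pmp2 on.

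**Figure D5:**
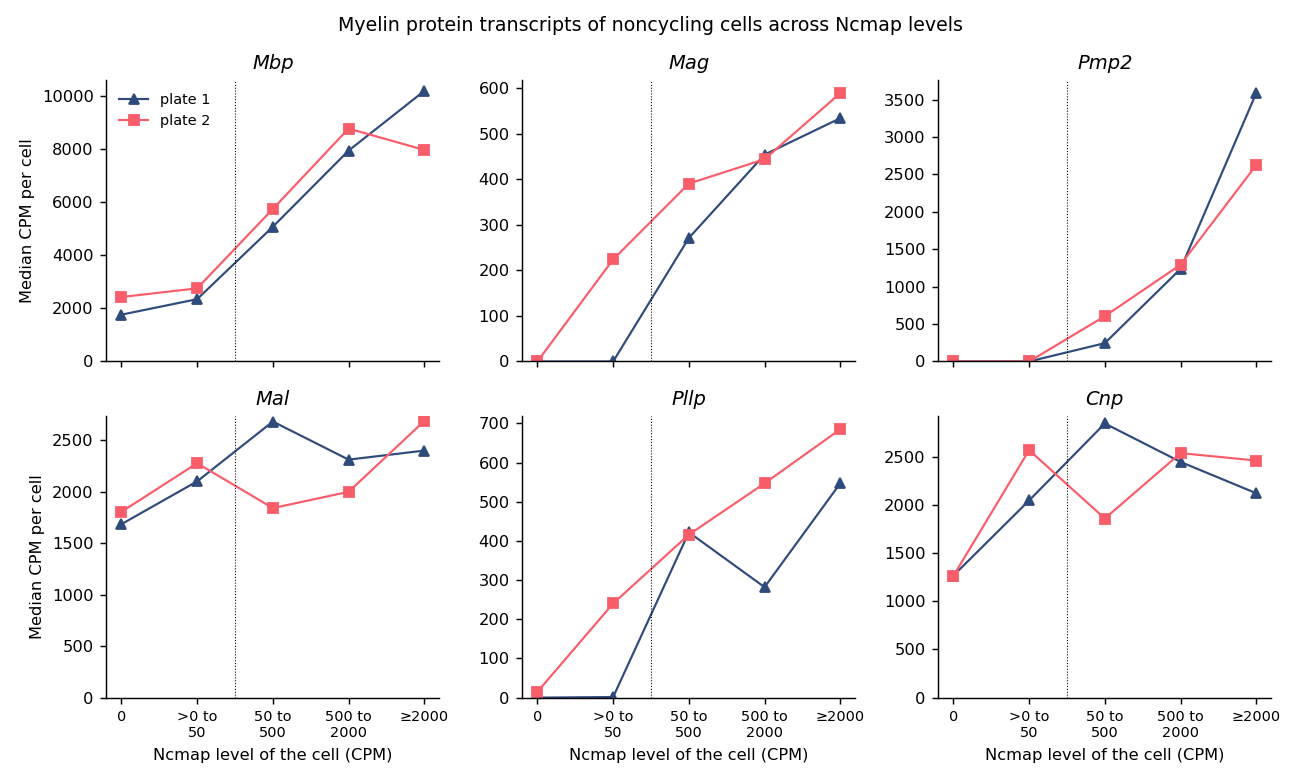
Median CPM per cell of the 6 genes in noncycling cells (vertical axes, linear from 0 and scaled for each gene) in 5 ranges of Ncmap (horizontal axes), for plate 1 (triangles) and plate 2 (squares). The dotted line is the threshold of 50 CPM that defined Ncmap-positive cells, and the range just left of it holds 7 and 6 cells. Pmp2 goes from 0 CPM at the left to 3586 and 2625 at the right, while Mal stays between 1685 and 2687.

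Within Ncmap-positive cells the genes did not all vary together. Spearman's rho, given for plates 1 and 2 over 59 and 60 cells that share library steps and depth, was 0.73 and 0.59 for Mbp with Mag, 0.58 and 0.59 for Mbp with Cnp, and 0.57 and 0.57 for Mbp with Pllp. Pmp2 went most with Mal (0.54 and 0.46) and had values of 0.02 and 0.13 with Pllp and 0.30 and 0.24 with Mbp. Mal had 0.19 and 0.11 with Mbp. The total reads of a cell had values of -0.40 and -0.43 with Mbp and -0.32 and -0.43 with Pllp, but 0.18 and 0.12 with Pmp2 and 0.12 and 0.19 with Mal, so the genes that varied with Mbp also varied with depth.

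Genes most like each of the 6 were sought over all 234 and 277 noncycling cells of plates 1 and 2, among 3358 genes whose mean reached 50 CPM on both, by the lower of the 2 plates' Spearman's rho. Pmp22, the tetraspan protein of peripheral compact myelin, came first for Mbp (0.68 and 0.71), Mag (0.69 and 0.66), Cnp (0.47 and 0.52) and Mal (0.44 and 0.33). For Mal the next, Hspb2, was at 0.23 and 0.21. Fa2h, which makes hydroxylated fatty acids for myelin lipids, came first for Pllp (0.58 and 0.58), followed by Cuedc2 (0.54 and 0.53), and second for Mag (0.65 and 0.60). Pmp2 had 1.00 and 1.00 with Gm37389, the gene that shares its reads, then 0.81 and 0.74 with Ncmap and 0.80 and 0.69 with Emid1. Cells of different classes enter these values, so they are a description of the classes as well.

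The rest of the myelin machinery gave a background for the 6 genes. In a list of 18 other genes of myelin proteins and lipids, 16 could be tested. By the edgeR adjusted p 7 were higher in Ncmap-positive than in other cells, where 0.497% of all genes were called higher, and 0 were lower. The median log2 fold change of the list was 2.22. Among the 7 are the 5 promyelinating markers called above, Pmp22, Prx, Cldn19, Fa2h and Gldn, so the 2 lists are not separate. Gldn, which gathers channels at the node, took 67.5 and 88.8 CPM in Ncmap-positive cells against 0 and 0.00578 in other cells. Fa2h had a log2 fold change of 3.19, Mpp6, a scaffold protein, 2.78, Pmp22 2.39, Cldn19, a tight junction protein, 2.35, Prx, the scaffold protein periaxin, 2.09, and Ugt8a, which makes the glycolipid galactocerebroside, 1.66. DESeq2 called 12 of the 16, where 1017 of all 13292 genes were called, and limma called 8, where 387 of all genes were. Both called the tetraspanin gene Tspan2, whose locus overlaps an antisense gene. Tspan2 was lower (log2 fold change -7.94 with DESeq2, adjusted p 7.16e-05, and -3.44 with limma, adjusted p 0.0444, against an edgeR adjusted p of 0.188). Tspan2 took 0.0575 and 0 CPM in Ncmap-positive cells and 5.24 and 10.2 CPM in other cells. Pmp22 alone took 11463 and 11856 CPM in Ncmap-positive cells. Mobp and Mog, known from central myelin, had 0 reads in all 3 classes. Between cycling and other cells 1 of the 16 was lower (Mpp6, log2 fold change -1.31, edgeR adjusted p 0.0394), where 0.113% of all genes were called lower. With the plate as a block 2 were, Mpp6 and Prx, where 20 of all 13292 genes were called lower. Against cycling cells 8 were higher in Ncmap-positive cells by edgeR, where 2.12% of all genes were called higher. With the plate as a block 10 were, where 333 of all 13292 genes were called higher.

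None of the tested relatives of the 6 genes was called higher in Ncmap-positive cells by edgeR. Of all genes, 0.497% were called higher against other cells and 2.12% against cycling cells. With so few relatives tested, 0 calls did not set them apart from genes in general. Of the fatty acid binding proteins other than Pmp2, 3 of 9 could be tested, and edgeR, DESeq2 and limma called 0 in each comparison. In edgeR 1 had an unadjusted p under 0.05 between Ncmap-positive and cycling cells, as did 2668 of all 13292 genes. In each of the other comparisons 0 of the 3 did. There 1485 (Ncmap-positive against other) and 1339 (cycling against other) of all genes did. Fabp5 took 232 and 209.6 CPM in Ncmap-positive cells and 377 and 316 in other cells. Of the MARVEL proteins related to Mal and Pllp, 7 of 9 could be tested, and edgeR called 0 between Ncmap-positive and other cells. At an unadjusted p under 0.05 stood 3 of the 7, and 1485 of all 13292 genes. DESeq2 called 2 and limma 1, where 1017 and 387 of all genes were called. With the plate as a block, edgeR called 1, Plp2, where 295 of all genes were called. Against cycling cells Plp2 was lower in Ncmap-positive cells (101 and 76.1 CPM against 473 and 299, log2 fold change -2.19, edgeR adjusted p 0.00528), where 3.83% of all genes were called lower. Of the sialic acid binding lectins related to Mag, 1 of 8 could be tested, Siglecf, with an edgeR adjusted p of 0.991 against other cells.

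Regulators of the myelin programme were also followed. Egr2, the transcription factor that drives myelin genes, took 333 and 307 CPM in Ncmap-positive cells, 147 and 131 in other cells and 58.7 and 95.7 in cycling cells. Against other cells its log2 fold change was 1.28 (edgeR adjusted p 0.0805). By edgeR 0 of the 6 regulators were called there, where 0.497% of all genes were called higher and 1.29% lower. Such a count did not set them apart from genes in general. Egr2 alone had an unadjusted p under 0.05, as did 1485 of all 13292 genes. DESeq2 and limma also called Egr2 alone, where 1017 and 387 of all genes were called. Against cycling cells Egr2 (log2 fold change 2.01, edgeR adjusted p 0.00562) and Pou3f1, which acts at the promyelinating stage (1.67, edgeR adjusted p 0.0184), were higher in Ncmap-positive cells. They were 2 of the 6 regulators, where 2.12% of all genes were called higher. Sox10, which SCs need at all stages, took 228 and 216 CPM in Ncmap-positive cells and 205 and 198 in other cells (log2 fold change 0.22, edgeR adjusted p 0.852). In the dissociation response list, 4 of 8 genes (Fos, Egr1, Atf3 and Ier2) were lower in Ncmap-positive than in other cells by edgeR, where 1.29% of all genes were called lower. With the plate as a block 5 were, where 205 of all 13292 genes were called lower.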

How the data were processed

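Reads of single SCs on 2 plates were deposited by the authors as raw counts per gene and well, with no normalisation. The submitters' processing notes name bcl2fastq, STAR 2.6.1c, featureCounts and the build GRCm38.p5. The methods name a human assembly and another STAR version, while the gene IDs of the table are mouse IDs. Strand use and the treatment of reads in overlapping genes are not stated. The table held 25700 genes and 743 wells, with 0 columns without a sample. Symbols came from GENCODE M21 for 25587 IDs.

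Members and lists were chosen with earlier results of these data known. The study's minimum of 1500 detected genes per well was applied, and no doublet caller was run. CPM were computed per cell and per sum. Sums of counts per plate and class were tested with edgeR 4.0.16 (TMM, filterByExpr, robust quasi-likelihood fit, R 4.3.3), with Benjamini-Hochberg adjustment and a threshold of 0.05. Each SE was the absolute log2 fold change divided by the root of its F statistic. Mki67, Top2a and Ncmap formed the classes and got no test. Sums of one plate came from the same mice, and their plate deviations correlated across 3710 genes with r of 0.102, 0.206 and 0.151, so a fit with a block for the plate was tried. Also tried were no filter on low counts, DESeq2 1.42.0, thinning to 50000 reads (5 cells had fewer), limma 3.58.1 with log2(mean CPM + 1), other gene minimums (1000 and 2500), class thresholds (25 and 100 CPM) and on levels (10 and 100 CPM), cells with traces of Ncmap left out, and each plate left out. The steps were tested on simulated data.

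Genes named in the text are the 6 members, list genes that were called or that illustrate a list, and genes of similar pattern. The last were taken, for each member, from the 3 genes with the most similar pattern, and not all of these are named. Mobp, Mog, Fabp5, Siglecf, Tspan2, Sox10, Dnajc7, Pdgfrb, Dcn and Cspg4 were named after their values were seen. Of the listed genes, 2 are not reported here.

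Sums held 45073128 to 172878954 reads and cells 26673 to 2291613, so that in a median cell 50 CPM is well above 1 read.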

Additional observations from a re-analysis of the deposited data

Results flagged for a closer look

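The 122 wells with fewer than 1500 detected genes entered no comparison, but held reads of all 6 genes, each above the limit of 0.143 CPM that a count of 0 would allow in their pooled reads. Mbp took 3692 CPM there, Mal 2198 and Cnp 1282 CPM. Pmp2 took 296 CPM, Pllp 63.2 and Mag 35.6 CPM, with reads in 11, 7 and 10 of the wells. Mbp was detected in 51, Mal in 58 and Cnp in 37 wells. The plates differed, with 77.2 CPM on plate 1 and 6.07 on plate 2 for Pllp, 43.4 and 3.88 for Mag, 241 and 523 for Pmp2 and 871 and 2962 for Cnp, while Mbp had 3612 and 4020.5 CPM and Mal 2064 and 2744. These wells have no controls and no class.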

How the results depend on the processing

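The counts of the 6 genes called, 4 between Ncmap-positive and other cells and 5 against cycling cells, stayed within 1.5 times of their value under all 10 alternative fits. Between cycling and other cells the count of 0 became 1, Pmp2, with DESeq2, with no filter on low counts and after thinning to 50000 reads. Of all genes, 238 were called between Ncmap-positive and other cells, 134 between cycling and other cells and 791 between Ncmap-positive and cycling cells. DESeq2 gave 1017, 813 and 2313, no filter 521, 317 and 1290, limma 387, 214 and 1362, and thinning 417 and 252 in the comparisons with other cells. With the plate as a replicate block the counts were 295, 156 and 885, and the block changed no call of the 6 genes other than Cnp against other cells and Mal against cycling cells. The sign of Mal between cycling and other cells reversed with limma (log2 fold change -0.10, adjusted p 0.856). The number of genes on per Ncmap-positive cell was 5.68 with on at 10 CPM, 5.41 at 100 CPM, 5.57 after thinning and 5.6 with at least 2500 genes per cell, and per other cell it was 3.86 with at least 2500 genes. The cause of these changes was not tested. Leaving out plate 1 or plate 2 gave 5.52 and 5.54 genes on per Ncmap-positive cell, 3.72 and 3.42 per other cell and 3.56 and 3.34 per cycling cell, and a share for Pllp against Pmp2 of 90.2% and 80.2%. With 1 plate no test is possible, so counts of calls were not run there.

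With 2 plates, p-values measure the spread between 2 pools of mice. Classes were formed from single genes at a threshold, and reads without molecular identifiers limit what low values of Mag and Pllp show in a single cell.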

Other observations

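Transcripts of other myelin genes went with the number of Pllp, Mag and Pmp2 on in other cells, which had almost no Ncmap. Prx had medians of 126 and 89.5 CPM on plates 1 and 2 with none on, 200.2 and 274 with 1 on, 500.1 and 339.8 with 2 on, and 981 and 1153 with 3 on, the last from 2 and 6 cells. Pmp22 had medians of 1508 and 1807 CPM with none on and 3071 and 2941 with 2 on, and Egr2 had 0 and 0 CPM with none on and 212 and 75.6 with 2 on. The mean of Ncmap in these cells stayed between 0 and 7.61 CPM. Cells with 2 on had fewer reads than cells with none on, as given above, and the part of depth was not tested.

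Among cycling cells Pllp, Mag and Pmp2 were on together in few cells, but each was also on in few. Pllp was on in 13 and 19 cells, Mag in 7 and 13 and Pmp2 in 4 and 3. The joint counts thus do not show that these genes were kept apart. Pllp with Mag was found in 2 and 5 cells and Pllp with Pmp2 in 0 and 2, whereas Pllp alone was found in 11 and 12 of the 53 and 57 cells. The median of Mbp in cycling cells was 1068 and 1226 CPM with none of the 3 on and 1452 and 2686 CPM with 1 on. Only 1 cycling cell had Ncmap at 50 CPM or more.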
